A study of Rattus norvegicus with 40 samples.

Results

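The 10 apolipoprotein genes described here are Apoa1, Apoa2, Apoa4, Apoa5, Apob, Apoc1, Apoc2, Apoc3, Apoe and Apoh. They were taken by symbol from the 17337 genes counted in rat liver, and all 10 passed the filter on low counts in every comparison. Male Fischer 344 rats received weekly intraperitoneal injections of diethylnitrosamine (DEN, 50 mg/kg), a liver carcinogen that hepatocytes convert into a DNA-alkylating product, starting at 7 weeks of age. Non-tumoral (NT) liver was taken after 8 weeks of injections, after 14 weeks of injections, and at week 20, when 14 weeks of injections had been followed by 6 weeks without DEN. Tumor (T) nodules were taken at weeks 14 and 20, 2 per rat, from the same rats as the NT liver. Rats of the same age that received no DEN served as controls at each of the 3 times. Each of the 8 groups held 4 rats, which gave 40 libraries from 24 rats. Each library mixes all cell types of a tissue piece.

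Apolipoproteins are the protein part of lipoproteins, the particles in which the liver and gut export triglyceride and cholesterol into plasma. One large apolipoprotein, encoded by Apob, forms the frame of very low density lipoprotein, while the small exchangeable ones move between particles, activate or hold back lipases and act as ligands for uptake receptors. In the adult liver hepatocytes are the main source of most of them, and several are targets of the nuclear receptor HNF4A, a factor that maintains the hepatocyte program. In bulk tissue, fewer hepatocytes and less transcript per hepatocyte cannot be told apart.

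Sequencing depth ran from 20528515 to 160622633 counted read pairs per library, with albumin at 10.4% to 19.0% of the pairs and the 10 members together at 3.31% to 5.24%. In NT liver of rat H26 at week 20 the depth was 160622633 pairs. Nodule T1 of rat F06 was the shallowest library and had the highest share of pairs outside annotated exons, 34.5%, and nodule T1 of rat F03 had the highest share of pairs aligned to several places, 16.3%. Rats carry a letter, F or H, whose meaning the labels do not give. All 12 no DEN rats are lettered H, while 2 DEN rats at week 8 (F09 and F10), 1 at week 14 (F06) and 1 at week 20 (F03) are lettered F. F rats stood apart from H rats of the same group in many members, so counts of members called are given below with and without them. How often F rats stood apart over all genes was not counted. With 1 F rat at week 14 and 1 at week 20, the letter and the single rat cannot be told apart there. Apart from fits within each rat, no share of all genes called is given for the fits without F rats. Those member counts therefore carry no background. Levels are given as CPM, the read pairs of a gene relative to the library total after TMM scaling for library size and composition, and are compared between groups for a gene and not between genes.

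A pair of gene clusters holds 7 of the 10 members. In the RefSeq annotation of the assembly GRCr8, Apoa1, Apoc3, Apoa4 and Apoa5 follow each other on chromosome 8 with no other annotated gene between them. On chromosome 1 Apoc2, Apoc4, Apoc1 and Apoe are neighbors in the same way. Apob lies on chromosome 6, Apoh on chromosome 10 and Apoa2 on chromosome 13, and none of the 10 overlaps another annotated gene. The upstream sequence is shown for 1 member of each cluster, Apoa4 and Apoc2, because both were among the members that fell at week 14 and each has a single RefSeq promoter entry. Of the members, 6 had an entry and 4 (Apoa1, Apoa2, Apob and Apoc3) had none. Each sequence covers the 250 bases before the transcription start, 5′ to 3′ on the strand of the gene, with motif matches in capitals (GRCr8, Apoa4 at chr8:55435529-55435778 on the plus strand, Apoc2 at chr1:88462366-88462615 on the minus strand).
Apoa4: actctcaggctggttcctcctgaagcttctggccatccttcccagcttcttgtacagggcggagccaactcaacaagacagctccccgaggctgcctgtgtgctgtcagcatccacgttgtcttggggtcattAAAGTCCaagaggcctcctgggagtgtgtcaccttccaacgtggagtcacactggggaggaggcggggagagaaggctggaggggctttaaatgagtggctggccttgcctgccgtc
Apoc2: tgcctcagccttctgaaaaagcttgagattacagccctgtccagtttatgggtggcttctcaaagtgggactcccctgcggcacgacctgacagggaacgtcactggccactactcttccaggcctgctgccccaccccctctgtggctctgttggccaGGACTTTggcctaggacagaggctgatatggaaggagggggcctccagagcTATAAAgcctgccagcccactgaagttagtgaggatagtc

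Searched on both strands were AAAGTCC, a core sequence bound by HNF4A, AGGTCA, the core hexamer of many nuclear receptor sites, and TATAAA, the TATA box, and no match overlapped another. AAAGTCC occurred in both, on the gene's strand in Apoa4, where it begins 117 bases before the start, and on the opposite strand in Apoc2, where it begins 91 bases before the start. TATAAA occurred in Apoc2, beginning 40 bases before the start, and not in Apoa4, and AGGTCA in neither. Among 33469 rat promoter entries cut to the same 250 bases, 3.99% held AAAGTCC, 14.1% AGGTCA and 12.9% TATAAA. These matches describe letters in a window and were looked for after the expression values were known.

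**Figure D1:**
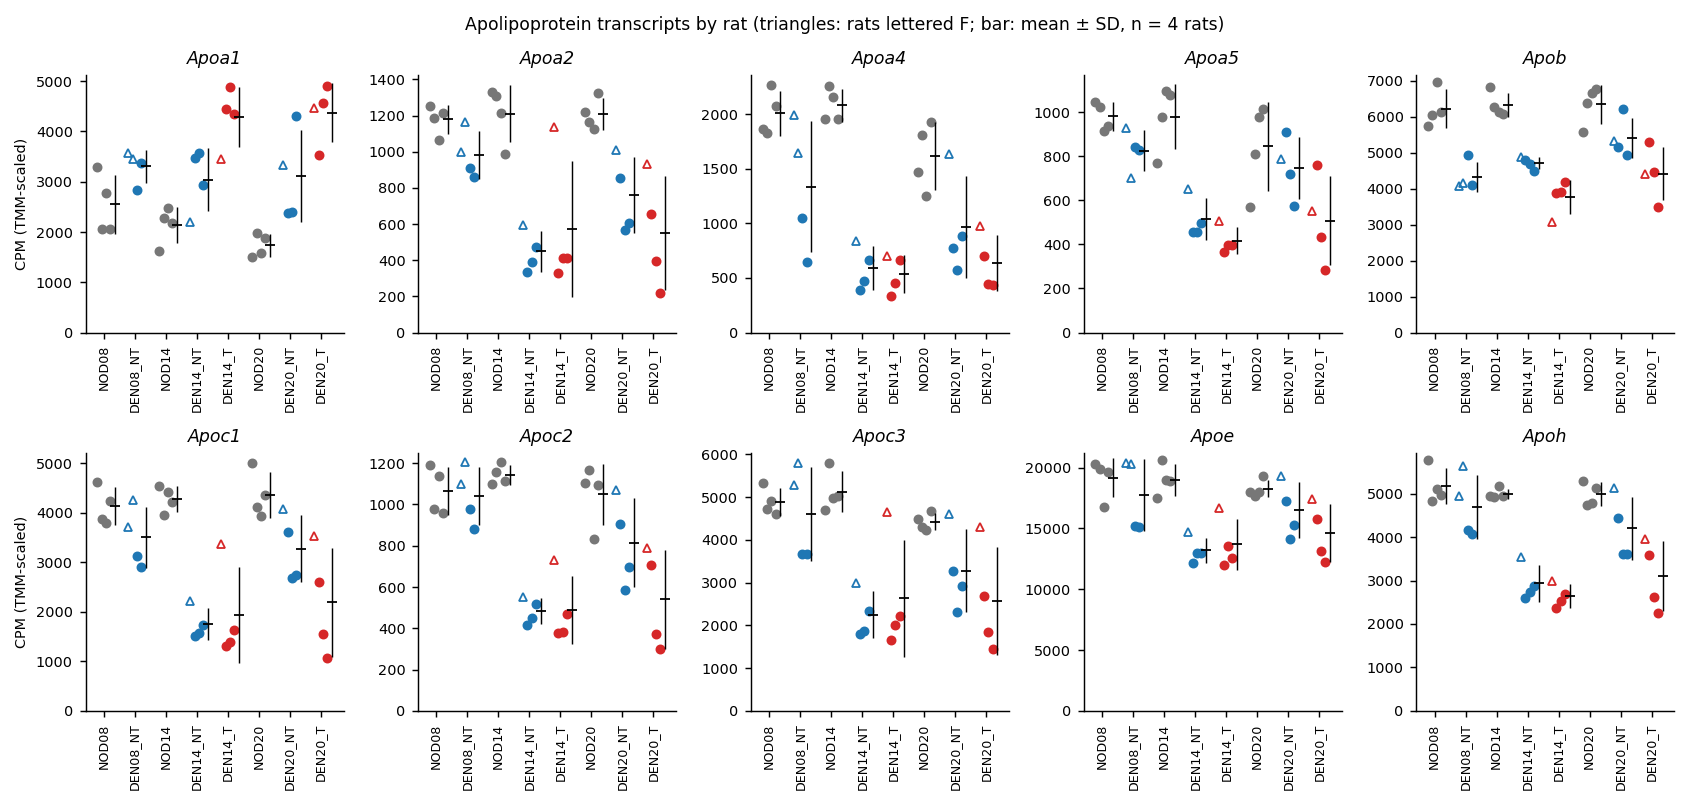
Level of each of the 10 members (vertical axis, CPM after TMM scaling, from 0) in the 8 groups (horizontal axis), with 1 point per rat, gray for no DEN liver, blue for NT liver and red for tumors, triangles for rats lettered F, and the mean ± SD of 4 rats beside each group. For Apoa4 the 4 NT livers at week 14 lie between 389.9 and 838.5 CPM, all below the 4 no DEN livers at 1957 to 2256 CPM, while Apoa1 is the member that lies higher in tumors than in no DEN liver.

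In liver that never received DEN no member was called between ages. From week 8 to week 14 their log2 differences ran from -0.26 (Apoa1) to 0.10 (Apoc2), and from week 14 to week 20 from -0.36 (Apoa4) to 0.03 (Apoc1). The quasi-likelihood test of edgeR called 0 of the 10 in either comparison, where 0% of all tested genes were called from week 8 to 14 and 0% from week 14 to 20. At an unadjusted p under 0.05 the counts were 0 and 3 members, the 3 being Apoa1, Apoa4 and Apoc3, beside 9.9% and 6.42% of all genes. DESeq2 also called 0 members in both. The age groups did not overlap for 0 members and 4.56% of all genes from week 8 to 14, and for 2 members (Apoa4 and Apoc3) and 4.21% of all genes from week 14 to 20. Here and below a gene counts as called when its log2 fold change is at least 0.5 in size and its Benjamini-Hochberg adjusted p over all tested genes is at most 0.05.

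After 8 weeks of DEN, Apob was the one member called lower in NT liver. Apob encodes the structural protein of very low density and low density lipoproteins, and its level was 4080, 4160, 4942 and 4100 CPM in the 4 DEN rats against 5735, 6058, 6982 and 6140 CPM in the 4 no DEN rats. The 2 groups did not overlap, and Apob fell to 69.1% of the no DEN level (log2 fold change -0.53, SE 0.10, adjusted p = 0.00212). Over all genes tested at this week, 5.21% were called lower and 16.5% higher, so 1 of 10 members lower and 0 of 10 higher was near the first background and below the second. The median log2 fold change of the members was -0.19, beside -0.01 over all genes, and groups did not overlap for 1 member and for 32.9% of all genes. Below 0 were 9 members and 51% of all genes, and 4 members and 45.7% of all genes had an unadjusted p under 0.05. Apoa4 had a lower estimate than Apob but a wider spread (log2 fold change -0.60, SE 0.29, adjusted p = 0.141) and was not called. Without H07 the fold of Apob was -0.47, just under the threshold at an adjusted p of 0.00804. Without H05 Apoa1 passed at 0.51 (adjusted p = 0.0168).

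Several other members divided by rat letter at week 8. Apoe, whose protein is the ligand through which remnant particles are cleared, was at 20400 and 20290 CPM in F09 and F10 and at 15180 and 15130 CPM in H17 and H18, with no DEN rats between 16780 and 20300 CPM. Apoc3, an inhibitor of lipoprotein lipase and of remnant uptake, was at 5286 and 5801 CPM in the F rats and at 3665 and 3670 CPM in the H rats. Apoa4, a triglyceride-responsive apolipoprotein of high density lipoprotein and chylomicrons, was at 1994 and 1646 CPM in the F rats and at 1047 and 650.5 CPM in the H rats, against 1830 to 2269 CPM without DEN. Within the group the 2 H rats were thus the lower pair for these 3 genes. How many of all genes divided in this way was not counted. With H rats only, Apoa4 was called lower (log2 fold change -1.24, adjusted p = 0.00247), Apob missed the fold threshold (-0.45, adjusted p = 0.0129), and the count stayed at 1. Without F09 alone Apoa4 also passed, at -0.85 (adjusted p = 0.0443).

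After 14 weeks of DEN, 7 members were called lower in NT liver and 1 higher. Those called lower were Apoa4, Apoa2, Apoc1, Apoc2, Apoc3, Apoa5 and Apoh, and the one called higher was Apoa1, the main protein of high density lipoprotein. Of all genes tested 9.85% were called lower and 22.8% higher, so 7 of 10 members lower lay far above the background share and 1 of 10 higher below it. The median log2 fold change of the members was -1.03, beside 0.02 over all genes. The DEN and no DEN rats did not overlap for 9 of the 10 members, all but Apoa1, and for 50.9% of all genes. Among H rats alone 9 members were called, the addition being Apoe.

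Apoa4 showed the lowest fold of the members. It was at 838.5, 389.9, 469.2 and 669.3 CPM in DEN rats (F06, H21, H22, H23) and at 1957, 2256, 2162 and 1957 CPM in no DEN rats. The highest DEN rat was below the lowest no DEN rat by more than the width of the no DEN group, and the level fell to 29.0% (log2 fold change -1.78, SE 0.22, adjusted p = 0.000127). Apoa2, the second structural protein of high density lipoprotein, was at 596.7, 335.7, 388.7 and 473.6 CPM with DEN and at 1332, 1310, 1215 and 988.1 CPM without. Its level fell to 37.9% (log2 fold change -1.40, SE 0.17, adjusted p = 0.000115).

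The 3 C apolipoproteins, small proteins that tune lipases and particle uptake, fell by similar amounts. Apoc1, which restrains receptor uptake, was at 2222, 1510, 1571 and 1726 CPM with DEN and at 4535, 3949, 4431 and 4210 CPM without (log2 fold change -1.25, SE 0.13, adjusted p = 3.27e-05). Apoc2, the obligate activator of lipoprotein lipase, was at 553.8, 414.4, 450.4 and 519.6 CPM with DEN and at 1100, 1159, 1205 and 1112 CPM without (log2 fold change -1.21, SE 0.10, adjusted p = 1.13e-05). Apoc3 was at 2996, 1806, 1862 and 2338 CPM with DEN and at 4701, 5810, 4990 and 5018 CPM without (log2 fold change -1.16, SE 0.16, adjusted p = 0.000191). In each of the 3 genes F06 was the highest of the 4 DEN rats, and no DEN rat reached the lowest rat without DEN. The 95% intervals of the 3 log2 fold changes, -1.51 to -0.997 for Apoc1, -1.41 to -1.01 for Apoc2 and -1.48 to -0.84 for Apoc3, overlapped.

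Apoa5 and Apoh fell less far. Apoa5, which promotes triglyceride hydrolysis at low plasma abundance, was at 652.6, 454.4, 455.4 and 496.4 CPM with DEN and at 769.6, 977.3, 1094 and 1076 CPM without (log2 fold change -0.90, SE 0.15, adjusted p = 0.000524). Apoh, also known as beta-2-glycoprotein I, a phospholipid-binding plasma protein of the coagulation system, was at 3536, 2589, 2729 and 2878 CPM with DEN and at 4941, 4916, 5174 and 4954 CPM without (log2 fold change -0.74, SE 0.11, adjusted p = 0.000321). Apob had an adjusted p of 0.00412 but a log2 fold change of -0.39 (SE 0.09), under the fold threshold. Apoe had an adjusted p of 0.00317 and a log2 fold change of -0.50 (SE 0.11), which before rounding is also just under it. Apoe passed with DESeq2 (-0.52), with RLE scaling (-0.51), with all 8 groups in a fit (-0.53), and without F06, H09, H11 or H12 (-0.57 to -0.50).

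Apoa1 was at 2192, 3470, 3565 and 2931 CPM in DEN rats and at 1628, 2280, 2470 and 2176 CPM in no DEN rats. F06 lay within the no DEN range and the 3 H rats above it. The level rose to 145% (log2 fold change 0.54, SE 0.17, adjusted p = 0.0217). This call rested on single rats, since without H21, H22 or H09 the log2 fold change was 0.42 to 0.47 with adjusted p from 0.0602 to 0.0611. The other 7 calls held in all 8 fits that left out 1 rat.

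At week 20, after 6 weeks without DEN, fewer members were called in NT liver. Whether the DEN effect itself changed from week 14 is a separate test, given below. Apoa2 was at 1012, 856, 568.7 and 606.7 CPM in F03, H25, H26 and H28 against 1220, 1165, 1125 and 1327 CPM in no DEN rats, and fell (log2 fold change -0.65, SE 0.17, adjusted p = 0.017). Apoa1 was at 3334, 2386, 2405 and 4311 CPM against 1509, 1980, 1586 and 1871 CPM, and rose to 182% (log2 fold change 0.86, SE 0.20, adjusted p = 0.0101). Neither gene overlapped between the groups. Both calls held in all 8 fits that left out 1 rat, but that of Apoa2 was lost when all 8 groups shared a fit (-0.67, adjusted p = 0.122). Of all genes 3.82% were called lower and 14.3% higher, against 1 of 10 members each way. The median log2 fold change was -0.29 for the members and 0.02 for all genes, and groups did not overlap for 2 members and for 28.9% of all genes. At an unadjusted p under 0.05 were 5 members and 40.2% of all genes. Apoa4 had a lower estimate than Apoa2 but a wider spread (log2 fold change -0.72, SE 0.31, adjusted p = 0.115) and was not called.

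The number of members called at week 20 depended on rat F03. Without it, which is also the comparison with H rats only, 6 were called, with Apoa4 (-1.10, adjusted p = 0.00449), Apoc3 (-0.62, adjusted p = 0.00734), Apoc1 (-0.51, adjusted p = 0.0198) and Apoc2 (-0.50, adjusted p = 0.0447) added as lower. In F03 these genes stood at 1638, 4605, 4075 and 1070 CPM. The other 3 DEN rats lay at 568.9 to 885 CPM for Apoa4, 2307 to 3261 for Apoc3, 2674 to 3611 for Apoc1 and 586.8 to 907.4 for Apoc2. F03 was the highest of the 4 in each of these genes.

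**Figure D2:**
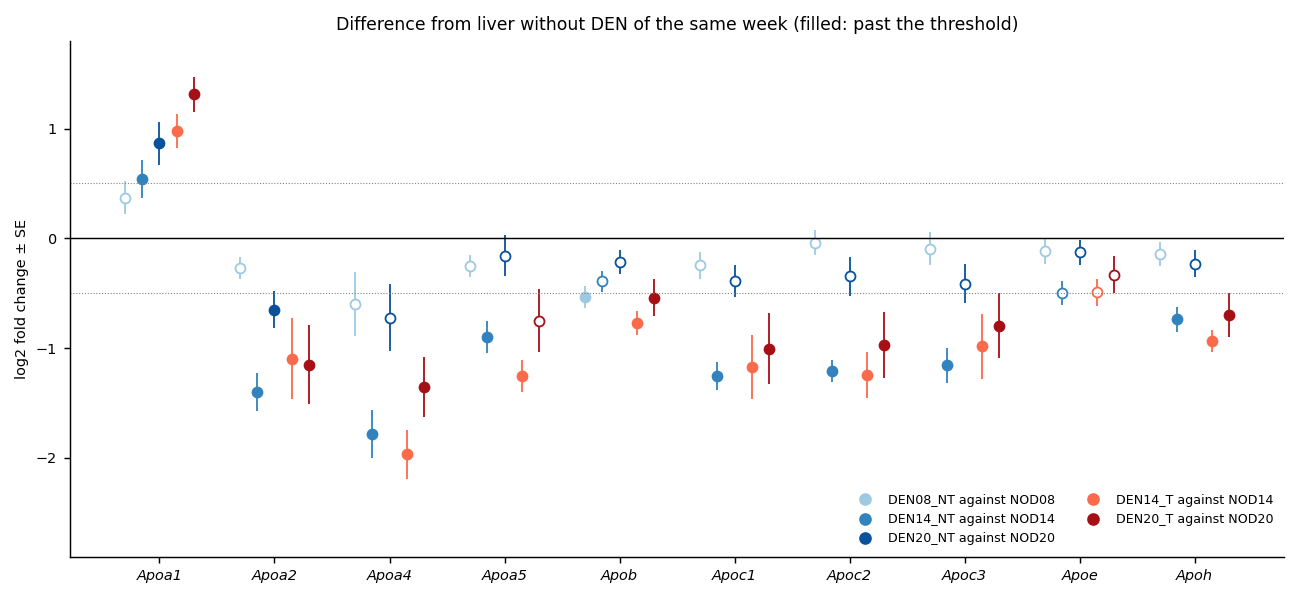
Log2 fold change ± SE (vertical axis) of each member (horizontal axis) in NT liver and tumors against no DEN liver of the same week, blue for NT liver at weeks 8, 14 and 20 and red for tumors at weeks 14 and 20, filled where the gene passed the threshold, with dotted lines at the fold threshold of 0.5. Apoa1 lies above 0 in all 5 comparisons (0.37 to 1.31) and the other 9 members lie below it, lowest for Apoa4 in tumors at week 14 (-1.97).

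An interaction term asked whether the difference from no DEN liver changed between weeks. Between week 8 and week 14 the NT effect moved lower for 6 members, with log2 differences of -1.17 for Apoc2 (SE 0.15, adjusted p = 0.00264), -1.13 for Apoa2 (SE 0.21, adjusted p = 0.007), -1.07 for Apoc3 (SE 0.23, adjusted p = 0.0131), -1.01 for Apoc1 (SE 0.19, adjusted p = 0.00681), -0.64 for Apoa5 (SE 0.18, adjusted p = 0.0372) and -0.59 for Apoh (SE 0.16, adjusted p = 0.0291). Of all genes 8.96% passed this test, which uses the adjusted p alone. For Apob the difference was 0.14 (95% interval -0.10 to 0.38), and the difference for Apoa4, at -1.19, had an interval of -1.96 to -0.42 and an adjusted p of 0.0705. Apoa4 passed with DESeq2 (-1.19, adjusted p = 0.0162) and without H17, H18 or F06 (-1.42 to -1.32, adjusted p from 0.0158 to 0.0465), and Apoe passed without H17 (-0.48, adjusted p = 0.047). With H rats only, an alternative added after the values were seen, 6 members again passed. Apoa2, Apoc1, Apoc2 and Apoc3 passed in all 16 fits that left out 1 rat. Apoa5 was lost in 10 of them (without F09, H18, H21, H22, H06, H07, H08, H10, H11 or H12, adjusted p from 0.0531 to 0.082) and Apoh in 8 (without F09, F10, H21, H06, H07, H08, H10 or H11, adjusted p from 0.0524 to 0.0612). A fit of all 8 groups together, in which tumors also enter the estimate of the spread, called none, with adjusted p from 0.0571 (Apoc2) to 0.197 (Apoa5) for these 6.

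Between week 14 and week 20 the NT effect differed by 0.18 (Apob) to 1.06 (Apoa4) on the log2 scale, above 0 in all 10 members. None passed with edgeR at the adjusted p, and 0.738% of all genes passed. At an unadjusted p under 0.05 were 8 members and 17% of all genes. The nearest were Apoc1 (0.87, SE 0.21, adjusted p = 0.0617) and Apoc2 (0.87, SE 0.22, adjusted p = 0.0745), which DESeq2 called along with no other member. Without F06, 5 members passed (Apoa2, Apoc3, Apoc1, Apoc2 and Apoh, 0.62 to 1.01), and without H26, 3 passed (Apoc1, Apoc2 and Apoc3, 0.89 to 1.00). Without H28, 2 passed (Apoc1 and Apoc2), and in H rats alone, again added after the values were seen, 2 passed (Apoc1 at 0.89 and Apoc3 at 0.71).

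In tumors at week 14, 8 members were lower than in no DEN liver and Apoa1 was higher. The tumor value of a rat is the sum of the counts of its 2 nodules, and these comparisons use the same no DEN rats as those of NT liver. Of all genes 15.2% were called lower and 23.9% higher, so the 8 of 10 lower members again lay above the background. The median was -1.04 for the members and 0.00 for all genes, and groups did not overlap for 9 members, all but Apoa2, and for 51.5% of genes. Apoe was the member not called (log2 fold change -0.49, SE 0.13, adjusted p = 0.0102). In H rats alone all 10 passed, with no share of all genes at hand for that fit.

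Apoa4 was at 702.4, 335.8, 457.5 and 664.7 CPM in tumors of F06, H21, H22 and H23, and fell to 25.6% of the no DEN level (log2 fold change -1.97, SE 0.22, adjusted p = 0.000133). Apoa5 was at 508.1, 366.9, 397.4 and 395 CPM (log2 fold change -1.25, SE 0.15, adjusted p = 0.000159). Apoc2 was at 729.1, 377.3, 383.5 and 467.6 CPM (log2 fold change -1.24, SE 0.21, adjusted p = 0.00105). In all 3 genes the 4 tumor values lay below the 4 no DEN values, with F06 highest. Apoh was at 2990, 2365, 2527 and 2698 CPM (-0.94, SE 0.10, adjusted p = 8.99e-05) and Apob at 3086, 3884, 3916 and 4180 CPM (-0.77, SE 0.11, adjusted p = 0.000513). For Apob F06 was the lowest of the 4 rather than the highest.

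Rat F06 carried most of the spread of the other fallen genes. Apoa2 was at 1137 CPM in its tumors and at 330.9, 410.5 and 414.4 CPM in those of the other 3 rats. Apoc1 was at 3367 against 1311, 1389 and 1639 CPM, and Apoc3 at 4644 against 1655, 2000 and 2224 CPM. The 3 genes fell with F06 included (Apoc1 -1.17, SE 0.29, adjusted p = 0.00841; Apoa2 -1.10, SE 0.37, adjusted p = 0.0334; Apoc3 -0.98, SE 0.30, adjusted p = 0.022) and further with H rats only (-1.56, -1.65 and -1.38). The call of Apoa2 was lost without H21, H22, H23, H09, H10 or H11 (adjusted p from 0.064 to 0.0844) and that of Apoc3 without H22, H23 or H10 (0.0526 to 0.0594). The other 7 calls held in every such fit. With nodule T1 alone Apoa2 was lost (-1.18, adjusted p = 0.0941) and Apoe passed (-0.60, adjusted p = 0.0167). The share of read pairs outside exons was 34.5% and 28.2% in the nodules of F06, beside a median of 23.9% over all libraries, and its part in the values of this rat was not tested.

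Apoa1 was at 3459, 4447, 4877 and 4341 CPM in these tumors, above the 4 no DEN rats at 1628 to 2470 CPM. It rose to 197% (log2 fold change 0.98, SE 0.15, adjusted p = 0.000759). At week 20 it was at 4474, 3538, 4574 and 4909 CPM, again without overlap, and rose to 248% (log2 fold change 1.31, SE 0.16, adjusted p = 0.000172). Apoa1 was the 1 member called higher in tumors at both weeks, and its call held in every fit that left out 1 rat.

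In tumors at week 20, 7 members were lower and Apoa1 higher. Of all genes 15.2% were called lower and 23.6% higher. The medians were -0.77 for the members and 0.01 for all genes, and groups did not overlap for 8 members and for 49.0% of genes. Apoa4 was at 979.1, 702.3, 445 and 431.2 CPM in tumors of F03, H25, H26 and H28 against 1473, 1813, 1252 and 1932 CPM without DEN (log2 fold change -1.35, SE 0.27, adjusted p = 0.00257). Apoa2 was at 932.8, 656.9, 393.8 and 216.3 CPM (-1.15, SE 0.36, adjusted p = 0.0222) and Apoc1 at 3536, 2609, 1546 and 1072 CPM (-1.01, SE 0.32, adjusted p = 0.0243). Rats ranked F03, H25, H26, H28 from high to low in all 3 genes. Apoc2 (-0.97, SE 0.30, adjusted p = 0.019), Apoc3 (-0.80, SE 0.30, adjusted p = 0.0439), Apoh (-0.70, SE 0.20, adjusted p = 0.0131) and Apob (-0.54, SE 0.17, adjusted p = 0.02) were lower as well. Apoa5 missed at -0.75 (SE 0.29, adjusted p = 0.0507) and Apoe at -0.33 (SE 0.17, adjusted p = 0.119).

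Of these 8 calls, Apoa1, Apoa4 and Apoh held in all 8 fits that left out 1 rat. Apoc3 was lost in 7 of the 8, all but the one without F03 (adjusted p from 0.0543 to 0.113). Apoc1 was lost without H26, H13 or H16 (0.0502 to 0.0665), Apoa2 without H26 or H16 (0.0523 to 0.064), Apoc2 without H26 (0.052), and Apob without H28, H15 or H16 (log2 fold change -0.52 to -0.43). Apoa5 passed without H25 or H13 (-1.02 to -0.90), with DESeq2 (-0.76), with RLE scaling (-0.75), with all 8 groups in a fit (-0.74) and with nodule T1 alone (-0.64). Only 4 members were called without H26 or without H16. In H rats alone 8 were called. The tumor effect did not differ detectably between week 14 and week 20 for any member with edgeR (0 called, 0 at an unadjusted p under 0.05 beside 3.26% of all genes, 0 with DESeq2, 0 in H rats alone, and 0.0862% of all genes called), with log2 differences from -0.07 (Apoa2, 95% interval -1.18 to 1.04) to 0.60 (Apoa4, -0.13 to 1.34).

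Tumors were next compared with NT liver of the same rats. At week 14 none of the 10 members was called with edgeR, whether rats were compared as groups or within each rat as a block, and neither was any other gene (0% in both fits). DESeq2 called 0 members as well. At an unadjusted p under 0.05 there were 2 members between groups, Apoa1 (0.47, SE 0.18) and Apob (-0.35, SE 0.12), beside 11.8% of all genes. Within rats 4 members had such a p, Apoa1, Apoa5, Apob and Apoh, beside 22% of all genes. Apoa1 was higher in the tumors of 4 of 4 rats by 0.36 to 0.66 on the log2 scale, while Apoa4, Apoa5, Apob and Apoh were lower in 4 of 4 rats. Tumors of F06 were above their own NT liver by 0.93 for Apoa2, 0.63 for Apoc3 and 0.60 for Apoc1, and the other 3 rats lay between -0.20 and 0.10 for these genes.

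At week 20 the blocked fit changed the result. Between groups, edgeR called no member and 0% of all genes, 0 members and 24% of all genes had an unadjusted p under 0.05, and DESeq2 called none. Within rats 4 members were called lower in tumor than in NT liver, and 5.46% of all genes were called lower and 9.21% higher. They were Apoc1 (-0.73, SE 0.17, adjusted p = 0.00922), Apoc2 (-0.70, SE 0.14, adjusted p = 0.00341), Apoa5 (-0.66, SE 0.13, adjusted p = 0.0024) and Apoa4 (-0.60, SE 0.15, adjusted p = 0.0102). In each of the 4 genes all 4 rats were lower in tumor, by 0.20 to 1.36 for Apoc1, 0.37 to 1.22 for Apoc2, 0.26 to 1.02 for Apoa5 and 0.14 to 1.04 for Apoa4. Apoa1 was higher in 4 of 4 rats by 0.19 to 0.93, and with a log2 fold change of 0.498 and an adjusted p of 0.0217 it was just under the fold threshold. Apoh (-0.48, adjusted p = 0.0138) and Apoc3 (-0.45, adjusted p = 0.0449) also had an adjusted p under 0.05 with a fold under the threshold. For Apoa2 the adjusted p was 0.0547 at -0.65. At an unadjusted p under 0.05 within rats were 9 members and 40.8% of all genes. In the same fit 4 of 10 hepatocyte markers were called lower (Alb -0.51, Ttr -0.59, Fga -0.55 and Rbp4 -0.51) and 0 higher. Of 5 cholangiocyte markers 3 were called higher and 0 lower. The part of these shifts in the levels of the members was not tested. The fit within rats was repeated without each rat, a check added after the values were seen. Without F03, which leaves H rats, 5 members were called, the same 4 and Apoa2 (-0.82, adjusted p = 0.0295). Without H25, 5 were called, the same 4 and Apoh (-0.54, adjusted p = 0.00722). Apoc1 was lost without H26 (-0.69, adjusted p = 0.0767), which left 3. Without H28, 2 were called, Apoa5 (-0.51, adjusted p = 0.0248) and Apoa1, then higher in tumors (0.63, adjusted p = 0.0182), while Apoa4 (-0.42, adjusted p = 0.0688), Apoc1 (-0.496, 0.0476) and Apoc2 (-0.499, 0.0202) were lost. The share of all genes called in either direction was 12.9% without F03, 17.9% without H25, 9.31% without H26 and 12.1% without H28, so that 2 of 10 without H28 was near its background. At week 14 the same check called 0 members in each of the 4 fits, and 2.59% of all genes without F06 against 0% in the other 3. Without F06, 5 members had an adjusted p under 0.05 with a fold under the threshold, Apoa1 (log2 fold change 0.45, adjusted p = 0.000149), Apoa5 (-0.29, 0.0019), Apob (-0.23, 0.00855), Apoc2 (-0.18, 0.023) and Apoc1 (-0.16, 0.0371).

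**Figure D3:**
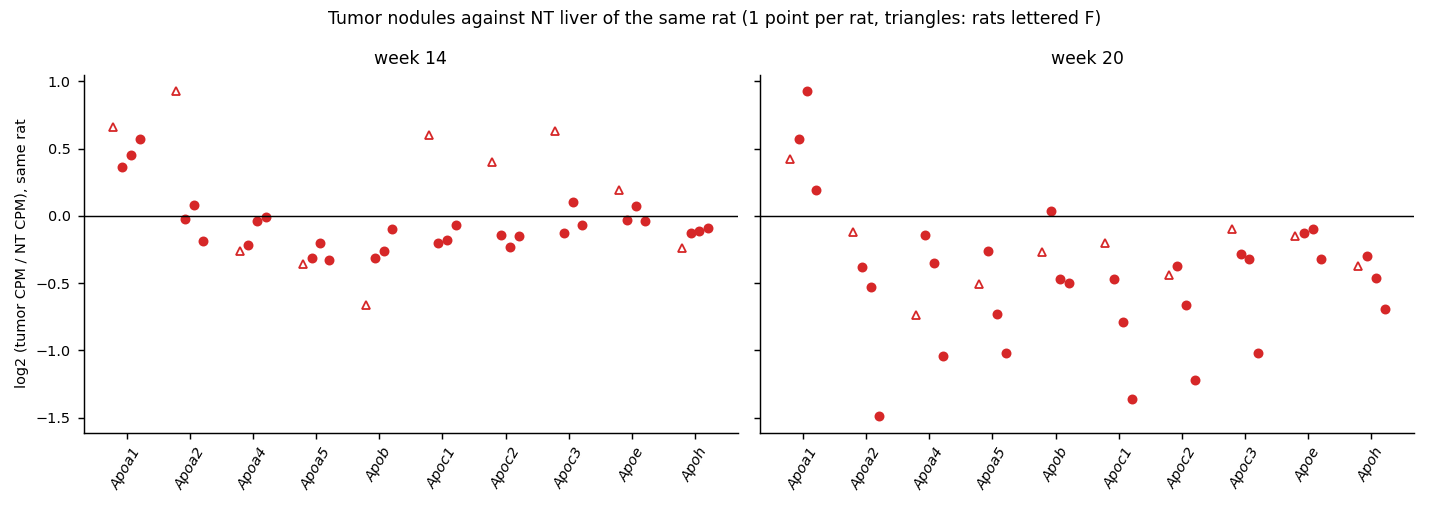
Log2 ratio of tumor to NT liver CPM of the same rat (vertical axis) for the 10 members (horizontal axis) at week 14 (left) and week 20 (right), 1 point per rat and triangles for rats lettered F. At week 20 Apoa1 lies above 0 in 4 of 4 rats and all other members except Apob lie below 0 in 4 of 4 rats.

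The 2 nodules of a rat differed more in some members than in others. Over the 8 nodules at week 20 the highest value of Apoa2 was 10.3 times the lowest, from 160.6 CPM in nodule T2 of H28 to 1652 CPM in nodule T1 of F03. For Apoc1 the highest value was 7.37 times the lowest, from 796.2 to 5865 CPM. Apoa1 spanned 3133 to 5483 CPM, a ratio of 1.75, and Apob 3425 to 6214 CPM, a ratio of 1.81. Much of the span for Apoa2 lay within single rats, as F03 had 1652 CPM in T1 and 511.9 CPM in T2, and H28 had 310.8 and 160.6 CPM. At week 14 the ratio of highest to lowest nodule was 5.86 for Apoa2 and 3.40 for Apoc1, with both nodules of F06 highest, and it was 1.57 for Apoa1 and 1.52 for Apob. In F03 nodule T1 exceeded T2 by 1.69 on the log2 scale for Apoa2 and by 1.41 for Apoc1, and this library is the one with 16.3% of pairs aligned to several places, whose part in these values was not tested. With nodule T1 alone 5 members were called at week 20, with Apoa2 (-0.73, adjusted p = 0.184), Apoc3 (-0.47, 0.325), Apoc1 (-0.64, 0.178) and Apoc2 (-0.65, 0.13) lost and Apoa5 gained. With T2 alone Apob was lost (-0.41, adjusted p = 0.112). When each nodule was its own value 5 were called, with Apoa2, Apoc1 and Apoc3 lost (adjusted p from 0.0545 to 0.0945).

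**Figure D4:**
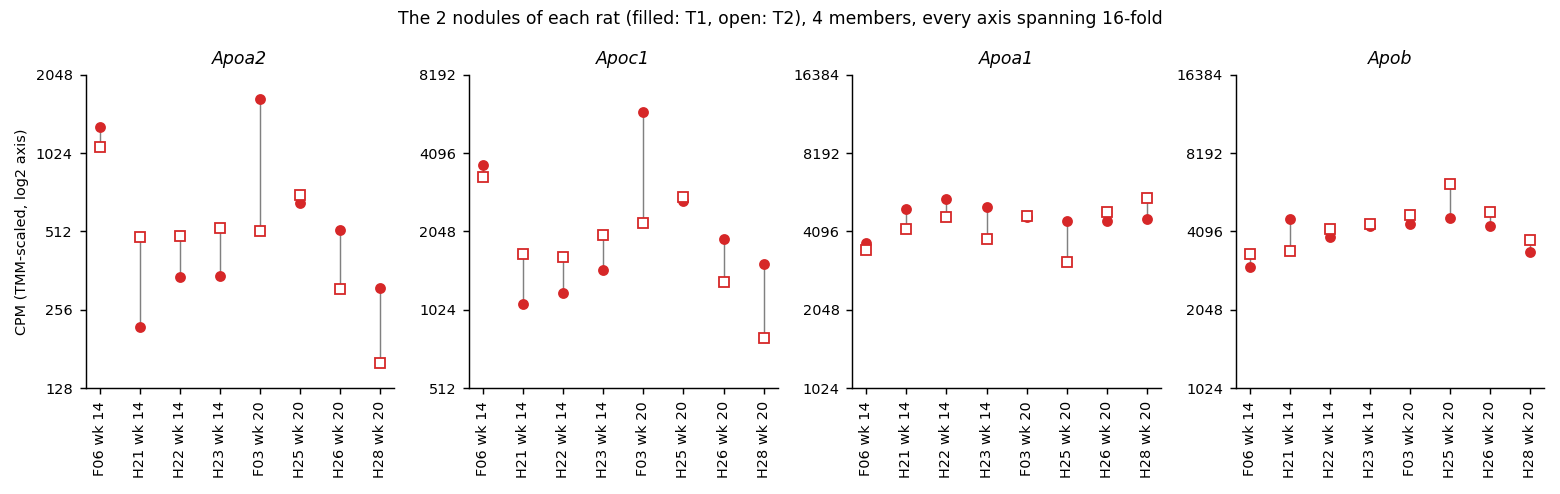
Level of Apoa2, Apoc1, Apoa1 and Apob (vertical axis, CPM on a log2 scale, each axis spanning the same 16-fold) in the 2 nodules of each of 8 rats (horizontal axis, rat and week), filled circles for nodule T1, open squares for T2 and a line joining them. Apoa2 and Apoc1 span up to 10.3-fold and 7.37-fold among the nodules of week 20, while Apoa1 and Apob stay within 1.75-fold and 1.81-fold.

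Apoa1 differed in direction from the genes of its cluster. The ratio of Apoa1 to Apoc3 counts was 0.34 to 0.61 in the 12 no DEN livers, 0.73 to 1.92 in NT liver at week 14 and 0.74 to 2.69 in tumors at week 14. In tumors at week 20 it was 1.04 to 3.40. The ratio to Apoa4 had a median of 1.06 in no DEN liver at week 14, 5.99 in NT liver and 8.60 in tumors, and medians of 1.06, 3.66 and 7.66 at week 20. The ratio to Apoa2, a partner of Apoa1 on high density lipoprotein, had medians of 1.89, 7.68 and 11.2 at week 14 and 1.41, 3.76 and 8.50 at week 20. The ratio of Apoc3 to Apoa4, which lie next to each other and both fell, shifted less, with medians of 2.48, 3.77 and 4.65 at week 14 and 2.73, 3.68 and 4 at week 20. The share of counted pairs held by all 10 members together had a median of 3.995% in no DEN liver, 3.46% in NT liver and 3.61% in tumors at week 14.

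**Figure D5:**
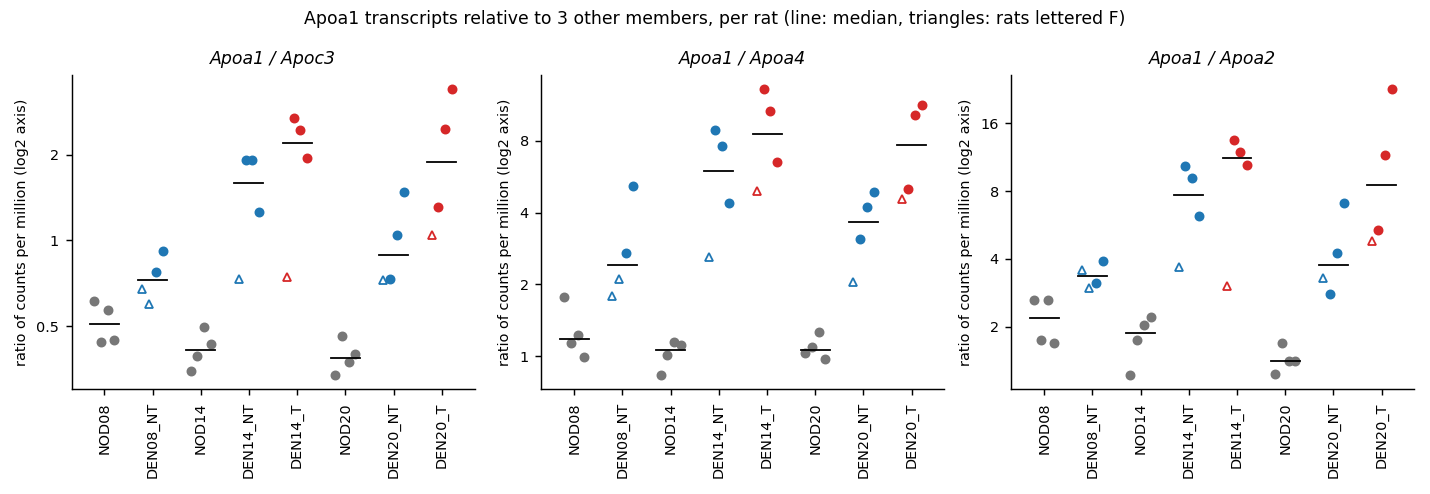
Ratio of Apoa1 to Apoc3, Apoa4 and Apoa2 in CPM (vertical axes, log2 scale) in each rat of the 8 groups (horizontal axis), with a line at the group median and triangles for rats lettered F. The ratio to Apoa4 has a median of 1.06 in no DEN liver at week 14 and of 8.60 in tumors of that week, and F06 is the lowest rat in each DEN group of that week.

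Across the 32 values, 1 per rat and tissue, log2 CPM of the 9 members other than Apoa1 moved together. Pearson's r was between 0.48 (Apob with Apoc3) and 0.976 (Apoa2 with Apoc1) over their pairs. Against Apoa1 each of the 9 had a negative r, from -0.768 (Apob) to -0.541 (Apoe). These values share libraries, treatment groups and, for NT liver and tumors, rats, so they describe the pattern and carry no test. Apob stood apart among the 9, with 0.721 (Apoa5) as its highest r to another member. Among the genes outside the list with the most similar profiles over the same 32 values were Mgat4b (0.965) and Haao (0.951) for Apoa4, Pxmp2 (0.983), Rdh7 (0.973) and Mgst1 (0.97) for Apoa2, and Pxmp2 (0.981), Rcl1 (0.976) and Ang (0.974) for Apoc1, these 3 members having the widest range of group medians. For the others the most similar gene was Gamt for Apoc3 (0.983), Rbp4 for Apoc2 (0.981), Gc for Apoh (0.98), Ddrgk1 for Apoe (0.97), Dpyd for Apob (0.96), F11 for Apoa5 (0.934) and Cd9 for Apoa1 (0.919).

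Other genes of lipoprotein metabolism were read from 5 lists. Their counts stand beside 9.85% of all genes called lower and 22.8% called higher in NT liver at week 14. In tumors the shares were 15.2% lower and 23.9% higher at week 14, and 15.2% lower and 23.6% higher at week 20. The first held other apolipoprotein genes and a few related ones, among them the receptor gene Apobr and the apolipoprotein L domain gene Apold1. Of its 10 genes tested in NT liver at week 14, 7 were lower and 2, Apobr and Apold1, were higher, with a median log2 fold change of -0.90. From this list and those that follow, up to 3 genes called in the most comparisons are named. Apol9a fell from 81.3 ± 15.6 to 33.3 ± 6.74 CPM (SD, n = 4, log2 fold change -1.26, SE 0.17) and was lower in all 5 comparisons with no DEN liver. Apobr, a receptor for apolipoprotein B of triglyceride-rich particles in macrophages, rose from 1.43 ± 0.14 to 2.87 ± 0.21 CPM (1.04, SE 0.15) and was higher in all 5. Apol3 was lower in 4 of the 5, at -0.78 (SE 0.08) in NT liver at week 14.

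Among 12 genes of particle assembly and secretion, 4 were lower and 1 higher in NT liver at week 14. The single one higher was Sort1, encoding sortilin, a sorting receptor that binds apolipoprotein B in the Golgi. It rose from 9.54 ± 1.71 to 40.3 ± 12.99 CPM (2.11, SE 0.26) and to 47.9 ± 15.2 CPM in tumors of that week (2.31, SE 0.26), and was higher in all 5 comparisons. Plin2, a lipid droplet coat protein, fell from 499 ± 92.99 to 227 ± 63.1 CPM (-1.10, SE 0.20) and was lower in all 5. Tm6sf2, needed for lipidation of very low density lipoprotein, fell in 4 of the 5 (-0.61, SE 0.08, in NT liver at week 14).

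Of 8 plasma enzymes and transfer proteins tested, 4 were lower and 2 higher in NT liver at week 14 and 6 were lower and 2 higher in tumors of that week. The 2 of 8 higher lay near the 22.8% and 23.9% of all genes called higher in the same comparisons. Both higher genes were Lpl, lipoprotein lipase, and Pltp, the phospholipid transfer protein. Lpl, which is low in adult hepatocytes, rose from 4.01 ± 1.09 to 12.5 ± 4.09 CPM in NT liver (1.67, SE 0.28) and to 15.2 ± 7.14 CPM in tumors (1.90, SE 0.34). Pltp rose from 29.9 ± 5.92 to 50.4 ± 8.18 CPM in NT liver at week 14 (0.79, SE 0.16). Angptl4, a lipase inhibitor, fell from 216 ± 51.4 to 77.3 ± 44.5 CPM (-1.45, SE 0.42).

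Of 12 receptor and efflux genes, 3 were higher and 4 lower in NT liver at week 14, and 2 were higher and 8 lower in tumors of that week. The 3 of 12 higher lay near the 22.8% of all genes called higher, and 2 of 12 in tumors lay below the 23.9% there. Vldlr, a receptor that binds Apoe-bearing particles, rose from 0.43 ± 0.11 to 1.95 ± 0.48 CPM (2.20, SE 0.27). Abcg1, a cholesterol exporter, rose from 5.97 ± 0.94 to 13.4 ± 2.54 CPM (1.19, SE 0.15). Both were higher in all 5 comparisons.

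Of 21 transcription factor genes known to act on apolipoprotein promoters, 6 were lower and 1 higher in NT liver at week 14, and 10 were lower and none higher in tumors at week 14 and again at week 20. Hnf4a fell in all 5 comparisons, by 0.51 in NT liver at week 8, 0.54 at week 14, 0.85 at week 20, 0.88 in tumors at week 14 and 1.14 in tumors at week 20 on the log2 scale (SE 0.10 to 0.14). Its lowest level, 338 ± 33.0 CPM in tumors at week 20, compares with 734 ± 79.9 CPM in no DEN liver. Its part in the levels of the members was not tested. Cebpa, a hepatocyte-enriched factor, fell in 4 comparisons (-0.87, SE 0.11, in NT liver at week 14), and Srebf1, a regulator of lipid synthesis, in 3 (-0.93, SE 0.15, in NT liver at week 14).

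Markers of hepatocytes and of other cell types differed between the groups. In NT liver, 16.5%, 22.8% and 14.3% of all genes were called higher at weeks 8, 14 and 20, and 5.21%, 9.85% and 3.82% lower. In tumors, 23.9% and 23.6% were called higher at weeks 14 and 20, and 15.2% lower at each. Summed CPM of 10 hepatocyte markers, all of them detected, was 321700 to 355700 in no DEN liver at week 14, 208500 to 267800 in NT liver and 187100 to 218900 in tumors, and 179400 to 256600 in tumors at week 20. In NT liver it was 268900 to 339900 at week 8 against 344300 to 350200 without DEN, with no overlap, and 255200 to 337300 at week 20 against 323300 to 369800. Of these, 7 were lower in NT liver and 8 in tumors at week 14, 0 in NT liver at weeks 8 and 20, and 6 in tumors at week 20. Markers of cholangiocytes summed to 16.1 to 23.6 CPM in no DEN liver, 38.6 to 86.9 CPM in NT liver and 64.2 to 116 CPM in tumors at week 14, with 5 of 5 higher in both. Stellate or fibroblast markers summed to 208 to 265 CPM, 380 to 496 CPM and 430 to 499 CPM in the same order, with 6 of 8 tested higher and 1 lower in NT liver and Col1a2 at 0 in every library. Endothelial markers summed to 90.02 to 139 CPM without DEN and 176.5 to 222 CPM in NT liver at week 14, with 4 of 6 higher. T cell markers summed to 1.16 to 1.48 and 2.03 to 3.955 CPM, with 3 of 3 tested higher, and macrophage markers to 378 to 555 and 382 to 958 CPM, with 3 of 9 higher. In tumors at week 14 endothelial markers summed to 173 to 212.3 CPM (4 of 6 higher) and T cell markers to 2.751 to 5.556 CPM (5 of 5). Macrophage markers there summed to 393.3 to 854.3 CPM (3 of 9). In NT liver at week 8, where 1 member was called, stellate or fibroblast markers summed to 371.3 to 490.1 CPM against 211.3 to 252.1 CPM without DEN (7 of 8 tested higher), and T cell markers to 4.547 to 5.67 against 1.236 to 2.105 CPM (5 of 5). Endothelial markers at week 8 summed to 170 to 183.9 against 85.2 to 143.3 CPM (4 of 6), and cholangiocyte markers to 29.14 to 36.82 against 18.94 to 22.8 CPM (3 of 5). Macrophage markers at week 8 summed to 798.4 to 940.7 against 500.8 to 941.1 CPM (3 of 9 higher). In NT liver at week 20, where 2 members were called, stellate or fibroblast markers summed to 249.2 to 269.5 against 178.9 to 230.9 CPM (4 of 8) and cholangiocyte markers to 34.28 to 55.04 against 17.71 to 22.27 CPM (5 of 5). Endothelial markers there summed to 161.4 to 217 against 58.82 to 156.8 CPM (4 of 6) and T cell markers to 2.754 to 3.551 against 1.13 to 1.687 CPM (2 of 4 tested), both without overlap. Macrophage markers there summed to 440.7 to 870.1 against 310.3 to 593.8 CPM (3 of 9 higher). In tumors at week 20, against the same no DEN rats, cholangiocyte markers summed to 69.4 to 181.2 CPM (5 of 5 higher), stellate or fibroblast markers to 278.7 to 351.6 CPM (5 of 8), and endothelial markers to 159 to 225.1 CPM against 58.82 to 156.8 CPM (4 of 6). T cell markers in these tumors summed to 2.6 to 4.239 CPM (3 of 5) and macrophage markers to 446.7 to 604.8 CPM (3 of 9). The part of these shifts in the levels of the members was not tested.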

How the data were processed

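Messenger RNA of rat liver was sequenced in 40 libraries. The values used are the raw read pair counts per gene deposited by the authors, who aligned stranded 75 bp pairs with STAR 2.7.1a to the genome rn6 and counted pairs with HTSeq on the reverse strand, keeping uniquely aligned pairs within exons. The gene annotation is not given in the sources used here. The notes of the submitters also name DESeq2 1.22.2. Lines of the counting summary (pairs outside exons, 21.5% to 34.5%, and aligned to several places, 7.96% to 16.3%) were kept out of all tests.

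Both nodules of each rat were added into a single count, which makes the rat the replicate (n = 4 per group). For each comparison the groups concerned were fitted alone in edgeR 4.0.16 (R 4.3.3) with filterByExpr, TMM scaling and the robust quasi-likelihood F test, two-sided, with Benjamini-Hochberg adjustment over all tested genes. A call required that the log2 fold change reach 0.5 in either direction with the adjusted p not above 0.05, and for interactions the adjusted p alone. Intervals are 1.96 SE on each side. The NT and tumor samples of a rat carry the same rat number, and their deviations from the group means correlated for all 8 rats (0.368 to 0.543), so the fit with the rat as a block is printed where it changed a call. All 10 members are named, and of each pathway list up to 3 genes, with a mean of at least 1 CPM, called in the most of the 5 comparisons with no DEN liver (ties by mean absolute log2 fold change). The script was tested on simulated data with known changes. Alternatives were DESeq2 1.42.0, RLE scaling, no filter, library totals and scaling computed without the members and albumin, all 8 groups in a fit, leaving out each rat, H rats only, each nodule or a single nodule, the rat block and a stricter threshold. H rats only for the interactions, and the rat block without each rat, were added after the values were seen. The members and gene lists were chosen with earlier results of these data known. P-values set a difference against the spread between rats of a group, or against the spread within rats where the rat was a block. With each nodule as its own value, the 2 nodules of a rat were treated as independent although they share the rat. Without molecular identifiers read pairs are not independent molecules. Promoter sequences and gene order are from RefSeq (GRCr8), which is not the build of the counts. Some genes selected from the pathway lists or by similar profile are not reported here.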

Additional observations from a re-analysis of the deposited data

Results flagged for a closer look

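In groups of 4 rats, a rat was singled out when its gap to the nearest rat was too large a share of the range of the group by Dixon's test at its 95% critical value, which chance does in about 1 in 20 groups. Of 80 groups tested (10 members in 8 groups), 4 met this. In tumors at week 14, rat F06 was high for Apoa2 (1137 CPM, the other rats at 330.9 to 414.4) and for Apoc1 (3367 CPM, the others at 1311 to 1639). In NT liver at week 8, H17 was high for Apob (4942 CPM, the others at 4080 to 4160). In no DEN liver at week 14, H11 was high for Apoh (5174 CPM, the others at 4916 to 4954).

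The DEN effect in NT liver differed between week 14 and week 8 by the interaction test of edgeR for 6 members, each lower at week 14. The log2 differences were -1.17 for Apoc2, -1.13 for Apoa2, -1.07 for Apoc3, -1.01 for Apoc1, -0.64 for Apoa5 and -0.59 for Apoh. They were negative in the H rats alone as well, from -1.16 for Apoa2 to -0.51 for Apoh.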

How the results depend on the processing

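Over the 7 comparisons that involve DEN, no member past the threshold changed sign under any alternative. With a fold of 2 and an adjusted p of 0.01, the counts of members called fell from 1 to 0 (NT, week 8), 8 to 5 (NT, week 14), 2 to 0 (NT, week 20), 9 to 4 (tumors, week 14) and 8 to 2 (tumors, week 20). Leaving out 1 rat gave 0 to 2 members in NT liver at week 8, 2 to 6 at week 20, 4 to 8 in tumors at week 20 and, for the change of the NT effect from week 14 to 20, 0 to 5. With all 8 groups in a fit, 1 member was called in NT liver at week 20 and 0 for the change from week 8 to 14. With H rats only, 6 were called in NT liver at week 20 and 2 for the change from week 14 to 20 (Apoc1 and Apoc3), where DESeq2 also called 2 (Apoc1 and Apoc2). In tumors at week 20, 5 were called with nodule T1 alone and 5 with each nodule as its own value. For the alternatives named so far no share of all genes called is given. Whether a shift in count is particular to the members therefore cannot be told. Only the rat as a replicate block called members between tumors and NT liver at week 20, 4 against 0, and 2 to 5 when 1 rat was left out. Scaling without the members and albumin left the counts in all 9 comparisons of 2 groups as they were (1, 8, 2, 9, 8 and 0 in the other four).

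Signs changed for members called under neither setting. Between tumors and NT liver at week 14, Apoc2 (-0.0085) was at 0.0014 without the filter, 0.0143 with all groups, 0.1792 in nodule T2 and 0.0035 with each nodule as its own value. In nodule T1 Apoe was at -0.086, and in T2 Apoa4 and Apoh were at 0.0646 and 0.0032. With H rats only, which here means without F06, Apoa2, Apoc3, Apoc1 and Apoe were at -0.0611, -0.04, -0.1564 and -0.0067. Leaving out 1 rat gave -0.0611 to 0.4844 for Apoa2, -0.04 to 0.2928 for Apoc3, -0.1564 to 0.1884 for Apoc1, -0.1811 to 0.0562 for Apoc2 and -0.0067 to 0.0627 for Apoe. In NT liver at week 8 it gave -0.2184 to 1e-04 for Apoc3 and -0.1131 to 0.0297 for Apoc2. The lowest count of a member in a rat and tissue was 12010. The cause of these changes was not tested.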
